A study of Mus musculus with 6 samples.

Results

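RNA that came down from mouse testis lysate with an antibody against MVH was compared with RNA that came down with normal rabbit IgG. The comparison uses 4 of the study's 6 arrays, chosen by their titles: MVH 1 and MVH 2 against IgG 1 and IgG 2. The other 2 arrays, WCE 1 and WCE 2, held total RNA taken with no antibody. They entered the fit to help estimate the spread and are shown beside the precipitates. All groups carry the same labels for strain (C57/BL6), tissue (Testis) and dye (Cy5), with no treatment, genotype or age given. The anti-MVH antibody came from Abcam and the control IgG from Santa cruz, so the groups differ in the source of the antibody as well as in its target. Per the labels' protocols, testes were sheared through needles, the pelleted cells were lysed in a buffer with detergent, and the lysate was cleared with protein A beads before either antibody was added overnight. The beads were washed 5 times and the RNA was taken off with Trizol, then amplified and coupled to dye. Part of the protocol text in the labels concerns tissue of another kind and was set aside. Nothing in the labels says that the arrays numbered 1 and 2 came from separate mice, so every p-value below rests on a spread between samples that may be only technical.

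MVH, the mouse vasa homologue, is the product of Ddx4, a DEAD-box RNA helicase found in germ cells and used to mark them. It gathers in germ granules: the intermitochondrial cement of spermatocytes and the chromatoid body of round spermatids, where proteins of the piRNA pathway and stored mRNAs are also found. Many mRNAs of spermatids are made well before their proteins, because transcription stops as the nucleus condenses, so RNA-binding proteins that store, mask or release mRNA matter greatly in these cells. An RNA immunoprecipitation shows which RNAs come down with a protein, or with what it is bound to, above those that come down with a control antibody.

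The arrays carried the profile of testis. Prm1, a protamine of the sperm nucleus, read 53209 and 74652 on the MVH arrays, 53942 and 78523 on the IgG arrays and 67960 and 77027 for total RNA, on a scale where each array's median is 30. The mRNA of MVH itself, Ddx4, read 1396 and 1559, 1468 and 1391 and 860 and 1306 in the same order, and its precipitates overlapped (difference 0.05 ± 0.30). A difference is the log2 value with MVH minus that with IgG, given with its SE from limma over 2 arrays per group. Scaled intensities serve to compare arrays for 1 gene and not genes with each other, since probes differ in brightness. What each precipitate yielded in total was not recorded, and centring sets each array's median alike. A gene that is lower with MVH therefore took a smaller share of that array's signal, and need not have been scarcer in the precipitate. As the RNA is from whole testis, fewer cells of a type in a sample and less RNA per cell cannot be told apart.

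Of 21574 probes listed on all 4 precipitate arrays, 824 were higher with MVH (3.82%) and 895 were lower (4.15%) at a limma adjusted p under 0.05, or 7.97% in either direction. Counting for each gene its brightest probe, 637 of 15315 genes were higher (4.16%) and 650 were lower (4.24%), and these shares are the background for every list below. The median difference of all genes was 0.08. In each called gene the arrays of MVH and IgG did not overlap. That alone is common: the arrays did not overlap for 30.7% of genes in the higher and 24.3% in the lower direction (29.9% and 23.8% of probes). The smallest difference that was called was 0.99. Calls were more frequent among brighter probes: in 4 equal bins of the signal in total RNA, from dim to bright, 1.33%, 2.33%, 5.10% and 7.90% of genes were called higher and 1.18%, 3.08%, 5.18% and 7.56% lower.

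The calls lean on the spread of the total RNA arrays and on single arrays. With only the 4 precipitate arrays fitted, or with either total RNA array left out, limma called 0 probes, with 4898 at an unadjusted p under 0.05. Without MVH 2 there were also 0 calls (3890 at an unadjusted p under 0.05), and without MVH 1 there were 94 higher and 16 lower. Without IgG 1 there were 593 and 424, and without IgG 2 there were 508 and 819. Other settings call more: without the dimmest 25% of probes there were 1492 and 1624, and with a variance trend 1507 and 1636. No called probe changed sign in any of these fits, but that was largely fixed in advance. In called genes the arrays of the precipitates did not overlap, so leaving out 1 of them could not turn the sign. Leaving out total RNA or changing the variance model does not alter the difference itself. The balance of the directions depends on the centring: on the values as deposited, 702 probes were higher and 121 lower, so that 85.3% of calls were higher against 47.9% after centring. Centring moves all genes alike; without it the median of all genes was 0.34, because IgG 2 was deposited with a median of 20.8 and each of the other arrays with 30. These limits hold for each count and each adjusted p that follows and are not repeated. Where a list is counted below with an IgG array left out, the fits without an MVH array, which called fewer probes, are mostly not shown.

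**Figure D1:**
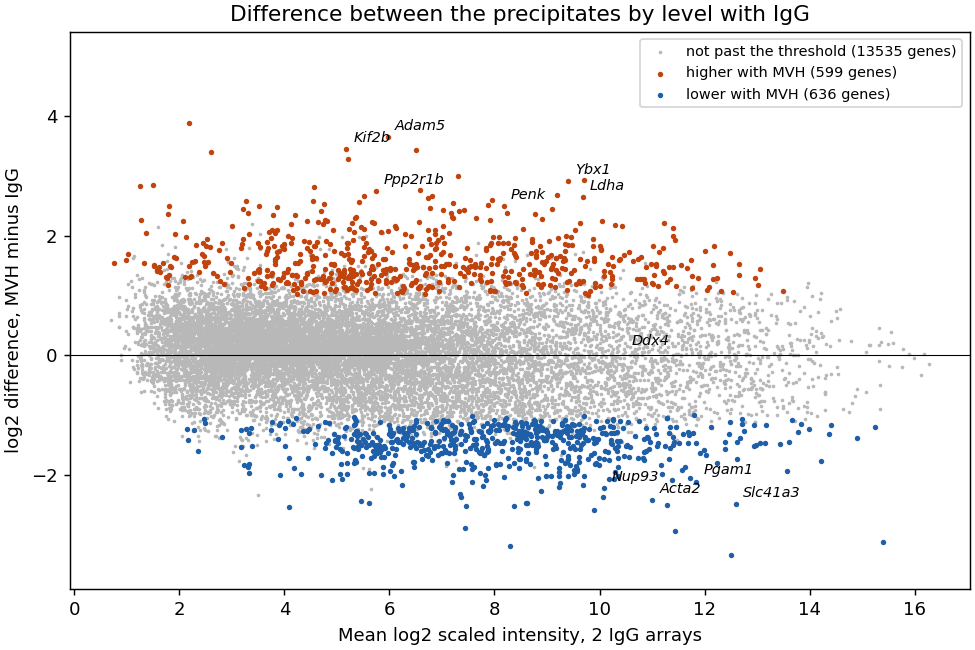
Each point is 1 of 14770 genes with a descriptive symbol; the horizontal axis is the mean log2 scaled intensity of the 2 IgG arrays and the vertical axis the log2 difference, MVH minus IgG. Red points (599 genes) were called higher and blue points (636 genes) lower at a limma adjusted p under 0.05, and grey points (13535 genes) were not called; Ddx4 lies near 0, and called genes lie beyond about 1 in either direction.

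Total RNA helps to place the called genes, though only as a description, since they were chosen by the difference between the precipitates. Of 633 genes that were higher with MVH and listed in total RNA, 492 read above both total RNA arrays on both MVH arrays, and 564 read below both on both IgG arrays. Their median was 0.60 above total RNA with MVH and 0.96 below it with IgG (log2 0.60 and -0.96). Of 649 genes lower with MVH, 594 read above both total RNA arrays on both IgG arrays and 414 read below both with MVH, with medians of 1.02 and -0.44. At their medians the called genes departed from total RNA in opposite directions in the precipitates, and by more with IgG: IgG lay farther from total RNA than MVH for 68.2% of the higher and 74.3% of the lower genes, against 60.5% of genes not called.

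Genes were grouped into 46 lists by function, which together hold 3585 of the tested genes, 175 of the genes called higher and 186 of those called lower. Each list had at least 1 called member, and 40 had calls in both directions. The shares called higher were largest for glycolysis and lactate metabolism (19%), translational regulators and mRNA-binding proteins (13.8%), fibrous sheath and related sperm tail genes (12.8%), kinesins (11.9%) and deubiquitinating enzymes (11.1%). Protein phosphatase subunits had 10 members higher and 0 lower (8.2% and 0%) in this fit. The shares called lower were largest for splicing factors and hnRNPs (11.7%), DNA repair and recombination (10.3%), actin and its partners (9.43%), mitochondrial ribosomal proteins (9.33%) and the transcription machinery (9.09%). No test of a list was made, so these shares describe the lists and do not set them apart.

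**Figure D2:**
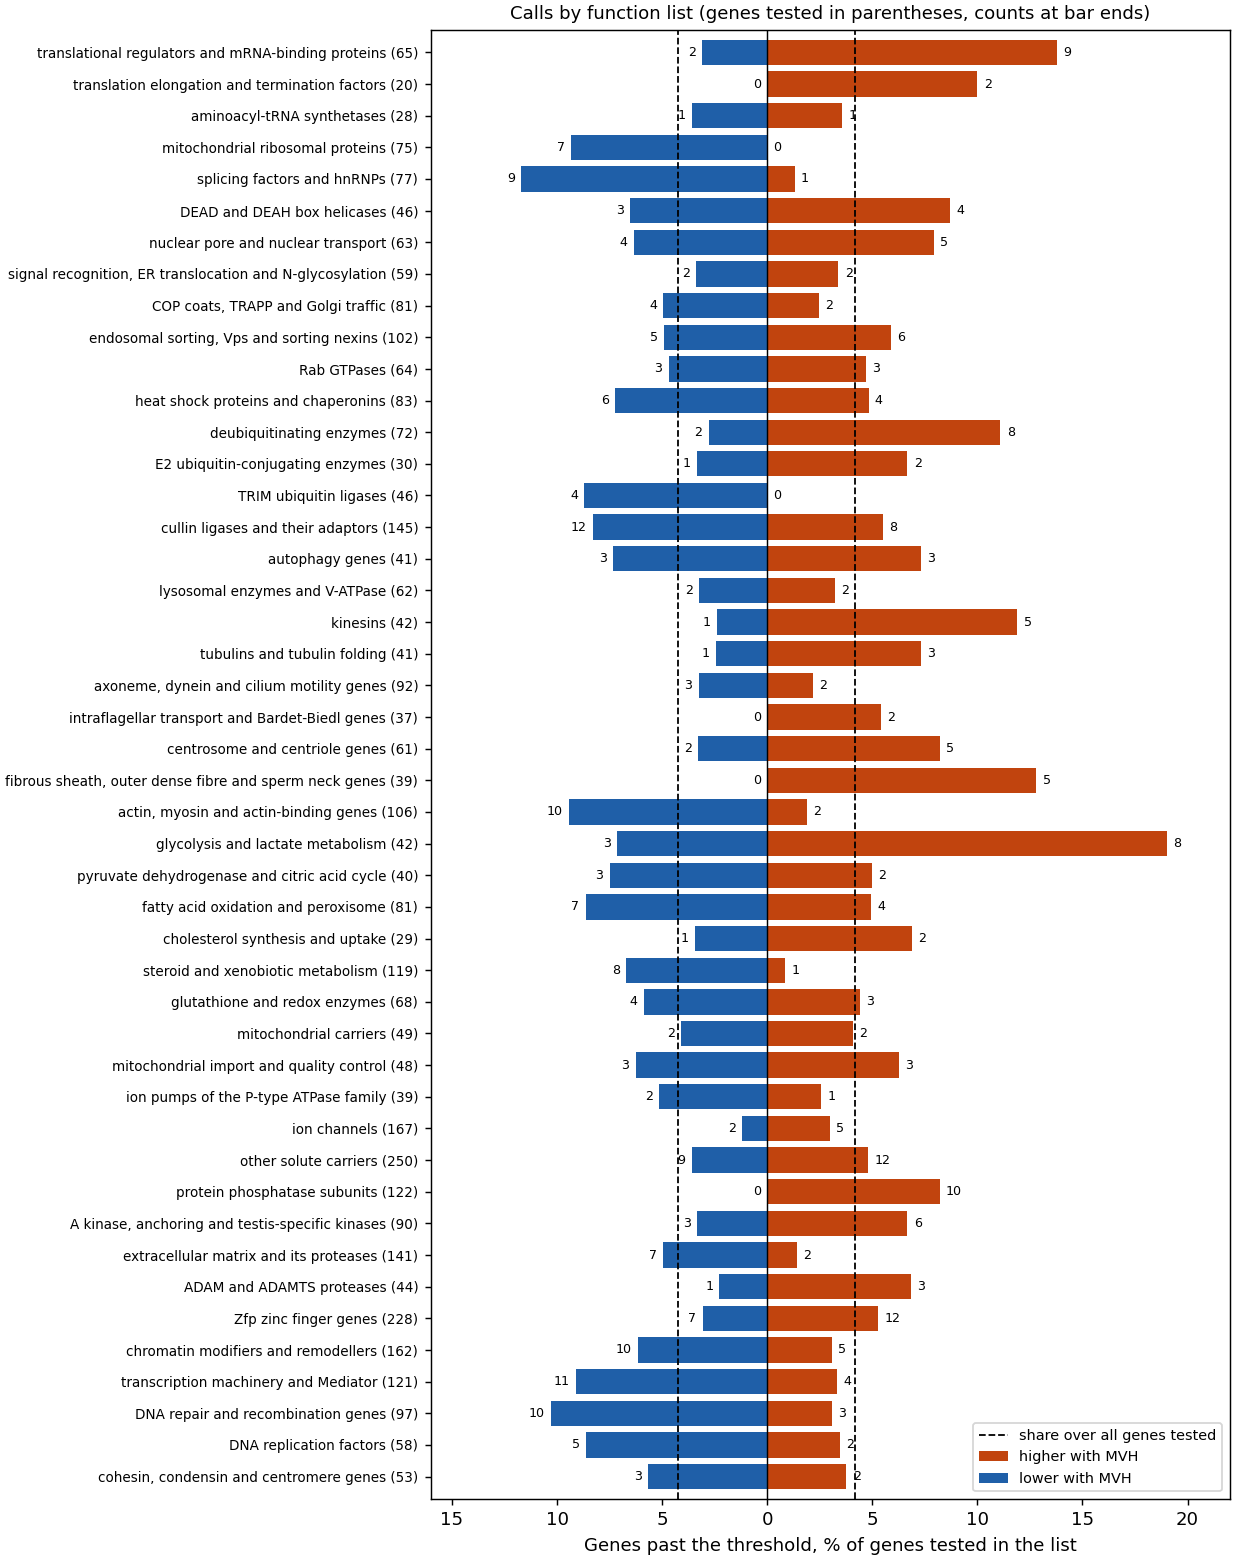
Bars give the percentage of tested genes in each of the 46 function lists that were called higher (red, to the right) or lower (blue, to the left) with MVH; numbers at the bar ends are genes called and numbers in parentheses are genes tested. The dashed lines mark 4.16% and 4.24%, the shares over all genes, which the glycolysis list passes most clearly on the right and the splicing list on the left.

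Messenger RNAs for proteins that themselves bind mRNA and set its translation were higher with MVH more often than lower: 9 of 65 against 2, with a list median of 0.21. Those higher include Y-box proteins, poly(A)-binding proteins and IGF2 mRNA-binding proteins, and the Y-box and poly(A)-binding families hold major packaging proteins of germ cell mRNA. Ybx1, which coats mRNA and keeps it from ribosomes when abundant, read 5750 and 4497 with MVH and 1166 and 392 with IgG. Total RNA read 3204 and 2617 for it, so that each MVH array stood above and each IgG array below both total RNA arrays. The difference was 2.91 ± 0.47 (limma adjusted p = 0.0174), and between 2.12 and 3.70 with any 1 precipitate array left out. Ybx3, the partner known as MSY4 in germ cells, read 4884 and 2407 against 1219 and 1213, with MVH 1 well above MVH 2 (1.50 ± 0.36, limma adjusted p = 0.0396). Its difference lay between 0.98 and 2.01 with any 1 precipitate array left out. The germ cell member Ybx2, known as MSY2, read 2300 and 745 against 738 and 592. Its difference of 0.99 ± 0.53 was not past the threshold, and MVH 2 barely exceeded IgG 1.

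Igf2bp3 and Igf2bp1, whose proteins bind, localise and stabilise mRNAs, showed close arrays. Igf2bp3 read 359 and 545 with MVH against 100 and 89.1 with IgG (2.23 ± 0.30, limma adjusted p = 0.0161). Igf2bp1 read 62.6 and 85.5 against 23.4 and 22.8 (1.66 ± 0.29). Both sets of total RNA values, 194 and 182 and 39.6 and 49.6, fell between the precipitates. Pabpc1, the general poly(A)-binding protein, read 17824 and 15005 against 6153 and 6754 (1.34 ± 0.27, limma adjusted p = 0.0266), and its testis relative Pabpc6 79.3 and 80.4 against 19.2 and 16 (2.19 ± 0.29). The 4 arrays kept the same order for Pabpc2, the poly(A)-binding protein of spermatids, at 4317 and 3148 against 2541 and 2279, but its difference of 0.62 ± 0.30 was not past the threshold. Caprin1, of RNA granules, was higher by 1.52 ± 0.34 and Cpeb2, which binds the polyadenylation element of 3′ ends, by 1.36 ± 0.35. Samd4, the mammalian Smaug repressor, was higher by 1.28 ± 0.28. In the other direction stood Nanos3, an RNA-binding protein of early germ cells, at 1530 and 1250 with MVH against 6038 and 3857 with IgG (-1.80 ± 0.31, limma adjusted p = 0.0192). Ptbp3, a polypyrimidine tract-binding protein, was lower, at -1.71 ± 0.29. Nanos3 is also on the list of spermatogonial markers, whose summed signal over 11 genes was 4050 and 4079 with MVH against 11131 and 7702 with IgG. Nanos3 itself makes up a large part of these sums, and of the 11 markers 5 lay above 0 and 6 below. The part of those cells in the difference of Nanos3 was not tested. With MVH 1, MVH 2 or IgG 1 left out fewer genes of the translational list were called, and fewest without an MVH array. The list median was 0.20 without MVH 1, 0.21 without MVH 2, 0.27 without IgG 1 and 0.05 without IgG 2. The medians of all genes in these fits were 0.09, 0.06, 0.14 and 0.01.

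Of the factors that carry out translation, Eif4b, which helps the helicase eIF4A unwind 5′ ends, was among the genes fixed by name and was higher by 2.42 ± 0.29. The list of elongation and termination factors held 2 higher and 0 lower genes among 20, with a median of -0.01. These shares were 10% and 0%, against 4.16% and 4.24% of all genes. The genes were Tpt1, the translationally controlled tumour protein, at 1.67 ± 0.38, and Abcf2, an ATPase of the ABCF family, at 1.59 ± 0.26. Neither is itself a classical elongation or termination factor. The arrays of Abcf2 lay close together, at 552 and 566 against 183 and 189. Aminoacyl-tRNA synthetases had 1 call each way among 28 (3.57% each). Vars2, the mitochondrial valine enzyme, read 616 and 684 against 101 and 90.4 (2.76 ± 0.27, limma adjusted p = 0.0112), but its second probe differed by 0.28 and was not called. Tars, the threonine enzyme, was lower, at -1.62 ± 0.28.

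Helicases of the DEAD and DEAH families, to which MVH belongs, were called in both directions, 4 higher and 3 lower of 46. These shares were 8.7% and 6.52%, against 4.16% and 4.24% of all genes. Ddx25, the gonadotropin-regulated testicular helicase of the chromatoid body, read 959 and 1886 with MVH against 279 and 199 with IgG. MVH 2 was the highest of the arrays and all IgG arrays lay below those of total RNA, at 488 and 632 (2.51 ± 0.38, limma adjusted p = 0.0172). Ddx20, a partner of the SMN complex, was higher by 1.58 ± 0.37 and Ddx49 by 2.34 ± 0.27, at 73.6 and 65.9 against 15 and 12.5. Ddx59 was higher by 1.66 ± 0.34 from a low IgG signal of 4.3 and 7.07, which leaves its size uncertain (1.09 with an offset of 4 before log2). Dhx35 (-1.39 ± 0.31), Ddx47 (-1.31 ± 0.28) and Dhx33 (-1.28 ± 0.29) were lower. Ddx3x, the ubiquitous relative, differed by 0.60 ± 0.28 and was not called.

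Protein phosphatase subunits were called in 1 direction only, with 10 higher and 0 lower of 122 genes and a list median of 0.25. The arrays did not overlap in the higher direction for 53 of the genes (43.4%) and in the lower for 20 (16.4%), against 30.7% and 24.3% of all genes. The list median was positive in each of the 4 pairings of an MVH with an IgG array, from 0.21 to 0.30. Protein phosphatase 2A is a trimer of a scaffold, a regulatory and a catalytic subunit, and 1 gene of each kind was higher. The scaffold gene Ppp2r1b read 366 and 353 with MVH and 60.9 and 47.3 with IgG, with total RNA between them at 129 and 152. The arrays within each precipitate agreed closely and the groups were far apart (2.74 ± 0.28, limma adjusted p = 0.0112). The regulatory gene Ppp2r3c read 903 and 2454 against 209 and 294, with MVH 2 well above MVH 1 (2.59 ± 0.46, limma adjusted p = 0.0212). The catalytic gene Ppp2cb was higher by 1.01 ± 0.26, at 1874 and 1685 against 884 and 877 and near the threshold (limma adjusted p = 0.0489). Of subunits and relatives of other phosphatases, Ppp4r4, a regulator of the 4 and 2A enzymes, was higher by 1.76 ± 0.33 and dim with IgG (1.24 with the offset). Ppm1j, a magnesium-dependent phosphatase, was higher by 1.58 ± 0.26, the type 1 partners Ppp1r42, Ppp1r1a and Ppp1r32 by 1.77 ± 0.30, 1.36 ± 0.32 and 1.33 ± 0.32, and the tyrosine phosphatases Ptpn4 and Ptpn14 by 1.91 ± 0.29 and 1.29 ± 0.30. The member with the lowest value, Dusp10, which acts on stress kinases, differed by -1.31 ± 0.36 and just missed the threshold (limma adjusted p = 0.0582). Without IgG 1 the list had 7 higher and 0 lower calls, without IgG 2 it had 9 and 2, and without MVH 1 it had 2 and 0.

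Among kinases and their anchors, 6 of 90 were higher and 3 lower (6.67% and 3.33%, against 4.16% and 4.24% of all genes). Those higher include genes of protein kinase A: the catalytic subunit gene Prkacb read 756 and 874 against 293 and 244 (1.61 ± 0.27), and the anchor of mitochondria Akap1 389 and 249 against 78.8 and 60.6 (2.17 ± 0.32, limma adjusted p = 0.0172). Akap3, an anchor in the fibrous sheath of the sperm tail, read 313 and 223 against 66.7 and 58.8 (2.08 ± 0.29), and Pde4a, which breaks down cyclic AMP, was higher by 1.69 ± 0.42. The spermatid kinases Tssk1 and Tssk2 were higher by 1.08 ± 0.26 and 1.07 ± 0.27, both from bright probes with the 4 arrays clearly split. Both are spermatid markers, as are 4 genes of the list in all, and the part of spermatid RNA as a whole was not tested. Genes of cyclic AMP signalling also lay on the lower side: the adenylyl cyclase Adcy9 read 10.1 and 7.8 with MVH against 65.1 and 37.2 with IgG (-2.47 ± 0.33), and Rapgef3, the cyclic AMP sensor EPAC1, which is in no list, 67.8 and 73 against 466 and 327 (-2.47 ± 0.29, limma adjusted p = 0.0148). The kinase Camkk2 was lower, at -2.13 ± 0.33 and Akap17b at -2.00 ± 0.44. Gsk3b, a kinase of the Wnt pathway also in no list, was higher by 2.57 ± 0.40.

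Genes of glycolysis and lactate metabolism had the largest share of calls, with 8 higher and 3 lower of 42. The steps that differed lie along the whole pathway, and some neighbours in it went opposite ways. Hexokinase Hk1, which starts glycolysis, read 1942 and 811 with MVH and 141 and 176 with IgG (2.99 ± 0.44, limma adjusted p = 0.0172), with MVH 1 above MVH 2. Tpi1, the triose phosphate isomerase, read 5712 and 6387 against 1998 and 2319 (1.49 ± 0.27), and the total RNA arrays, at 4558 and 5602, lay just under those of MVH. Gpd2, the mitochondrial glycerol phosphate dehydrogenase, read 3645 and 3816 against 1002 and 339; its MVH arrays agreed and IgG 2 was the lowest (2.68 ± 0.50). Pgk2, the phosphoglycerate kinase of spermatogenic cells, read 9349 and 14813 against 3321 and 2185 (2.13 ± 0.35, limma adjusted p = 0.0177). Ldha, the muscle-type lactate dehydrogenase subunit, read 4890 and 5354 against 1239 and 545 (2.64 ± 0.40, limma adjusted p = 0.0172), and 2.05 and 3.23 bound its difference with any 1 precipitate array left out. The lactate and pyruvate carrier Slc16a7 was higher by 1.85 ± 0.39 and the fructose carrier Slc2a5 by 1.52 ± 0.27. Pfkfb4, which sets the level of an activator of phosphofructokinase, was higher by 1.25 ± 0.28.

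On the lower side, Pgam1, the phosphoglycerate mutase that follows Pgk2 in the pathway, read 947 and 770 with MVH and 3960 and 3415 with IgG. All MVH arrays lay below total RNA, at 1210 and 1364, and all IgG arrays far above it (-2.11 ± 0.27, limma adjusted p = 0.0161). Ldhb, the heart-type lactate dehydrogenase subunit, read 1656 and 1996 against 5841 and 4891 (-1.56 ± 0.30), the reverse of Ldha. Pfkl, the liver phosphofructokinase, read 23.5 and 17.2 against 80.7 and 41.8 and passed narrowly (-1.53 ± 0.38, limma adjusted p = 0.0462). Several genes of the same pathway had arrays in the same order as Hk1 without passing the threshold: Aldoa at 0.80 ± 0.26, Eno1 at 0.86 ± 0.27 and the sperm enzyme Gapdhs at 0.93 ± 0.27. With MVH 1, MVH 2 or IgG 1 left out fewer genes of the list were called, and fewest without an MVH array. The list median was 0.14 without MVH 1, 0.06 without MVH 2, 0.19 without IgG 1 and 0.17 without IgG 2. The medians of all genes in these fits were 0.09, 0.06, 0.14 and 0.01. The list shares Pgk2 with the markers of spermatids, of which 4 of 21 were higher and 0 lower, with a summed signal of 379608 and 508566 with MVH against 337405 and 423911 with IgG. Of these 21 markers, 17 lay above 0 and 4 below, with a median of 0.49. The part of spermatid RNA as a whole in the differences of the glycolysis list was not tested.

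Later steps of energy metabolism were called in both directions, with shares of 7.5% and 8.64% called lower against 4.24% of all genes, and 5% and 4.94% called higher against 4.16%. Of 40 genes of pyruvate dehydrogenase and the citric acid cycle, 2 were higher and 3 lower. Dld, the dehydrogenase subunit that these complexes share, read 120 and 350 against 61.2 and 27.5; MVH 2 stood far above MVH 1, and the difference of 2.32 ± 0.53 lay between 1.54 and 3.09 with any 1 precipitate array left out. Idh3b was higher by 2.16 ± 0.38, while Mdh1, Sdhc and Pdk3 were lower, at -1.32 ± 0.31, -1.22 ± 0.30 and -1.05 ± 0.27. In fatty acid oxidation, 4 of 81 genes were higher and 7 lower. Crat, the carnitine acetyltransferase, was higher, at 937 and 781 against 179 and 142 (2.42 ± 0.30, limma adjusted p = 0.0156). So were the acyl-CoA synthetases Acsl5 (1.98 ± 0.38) and Acsl1 (1.29 ± 0.27), and the thioesterase Acot7 (1.85 ± 0.37). Those lower include Acss1 (-1.80 ± 0.27), the enoyl-CoA isomerase Eci2 (-1.32 ± 0.30), Etfb, which takes up the electrons (-1.26 ± 0.28), and the peroxisomal transporter Abcd3 (-1.18 ± 0.28).

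Deubiquitinating enzymes were higher more often than lower, at 8 and 2 of 72, while the list median of 0.03 lay below that of all genes. Usp37 read 65.5 and 101 with MVH and 17.4 and 12.1 with IgG (2.48 ± 0.35, limma adjusted p = 0.0166). Usp8, an enzyme of endosomes known from the forming acrosome, read 101 and 169 against 25.8 and 35.8 (2.10 ± 0.33). Usp16, which acts on histone H2A, read 318 and 544 against 97.8 and 120 (1.94 ± 0.33). Both MVH arrays of each were above total RNA, with MVH 2 the higher. For Usp16 both IgG arrays were above it as well, as total RNA read 86.3 and 67.9. Cops5, the catalytic subunit of the COP9 signalosome, was higher by 1.83 ± 0.34, the proteasome enzyme Usp14 by 1.81 ± 0.41, Usp50 by 1.53 ± 0.37, Usp2 by 1.39 ± 0.30 and Usp17la by 1.16 ± 0.30. Usp53 (-1.97 ± 0.44, dim with MVH at 2.4 and 2.7) and Uchl4 (-1.71 ± 0.27, at 546 and 496 against 1728 and 1674) were lower. The difference of Usp14 lay between 1.15 and 2.47 with any 1 precipitate array left out. With any 1 precipitate array left out fewer genes of the list were called, and fewest without an MVH array. The list median was 0.13 without MVH 1, -0.09 without MVH 2, 0.11 without IgG 1 and 0.07 without IgG 2.

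Enzymes that attach ubiquitin were called in both directions. Of 145 cullins and adaptors, 8 were higher (5.52%) and 12 lower (8.28%), against 4.16% and 4.24% of all genes. Of 46 TRIM ligases 0 were higher and 4 lower (8.7%). The list medians were 0.01 and 0.01. Without IgG 1 the cullin list had 5 higher and 5 lower calls, and the TRIM list had 0 and 3. Cul3 and Klhl10, which form a ligase needed in spermatids, were both higher. Klhl10 read 1382 and 1976 against 692 and 318 (1.82 ± 0.40, limma adjusted p = 0.0319), and Cul3 217 and 486 against 119 and 90.1, with MVH 2 more than double MVH 1 (1.65 ± 0.40, limma adjusted p = 0.0403). The difference of Cul3 lay between 1.07 and 2.23 with any 1 precipitate array left out. Dcaf12, an adaptor of the CUL4 ligase, read 2339 and 2956 against 696 and 622 (2.00 ± 0.28). Spop, another CUL3 adaptor, was lower, at 192 and 177 against 511 and 1052 (-1.99 ± 0.36), as were the F-box genes Fbxo16 (-2.32 ± 0.43) and Fbxw8 (-2.03 ± 0.31). The second probe of Fbxw8, a dim one, differed by 0.33 and was not called. The TRIM genes that were lower beside Trim25 were Trim32 (-1.41 ± 0.29), Trim44 (-1.40 ± 0.33) and Trim23 (-1.13 ± 0.28, dim in both precipitates); Trim42, the highest of the family, differed by 1.04 ± 0.29 and just missed the threshold. The E2 genes Ube2j1 and Ube2d2b were higher, by 1.06 ± 0.27 and 1.47 ± 0.31, and Ube2z was lower, at -1.85 ± 0.26.

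**Figure D3:**
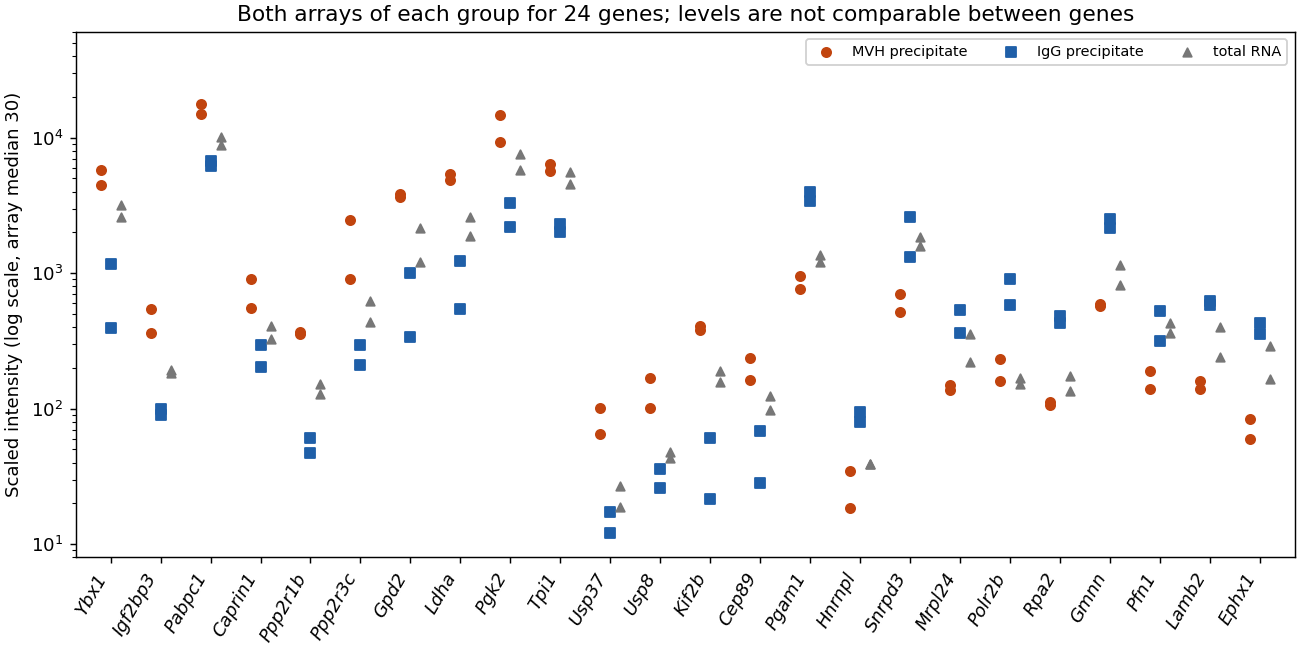
Scaled intensity of both arrays of each group for 24 genes on a logarithmic vertical axis, where every array has a median of 30; circles are MVH, squares IgG and triangles total RNA. In the first 14 genes both circles lie above both squares, and in the last 10 both lie below; for most genes the triangles lie between.

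Kinesins, the motors that move along microtubules or take them apart, had 5 higher and 1 lower of 42, with a median of 0.30. These shares were 11.9% and 2.38%, against 4.16% and 4.24% of all genes. The arrays did not overlap in the higher direction for 31% of kinesins, near the 30.7% of all genes. In the lower direction they did not overlap for 14.3%, against 24.3%. Kif17, a motor that has been placed in the chromatoid body, read 433 and 480 with MVH and 90.3 and 125 with IgG, with total RNA between at 244 and 183 (2.10 ± 0.30, limma adjusted p = 0.0166). Kif27 was higher by 1.23 ± 0.27, at 267 and 314 against 136 and 112, and Kif19a, of cilia, by 1.25 ± 0.27, dim with IgG. Kif7 was higher by 1.33 ± 0.32 on its brighter probe, while its other, dim probe differed by 0.03. Kif5b, the conventional heavy chain, was the 1 that was lower, at 33.1 and 18.2 against 81.5 and 54.2 (-1.44 ± 0.36). The list median ranged from 0.07 to 0.44 over the pairings of arrays. It was 0.22 without MVH 1, 0.17 without MVH 2, 0.37 without IgG 1 and 0.06 without IgG 2. The medians of all genes in these fits were 0.09, 0.06, 0.14 and 0.01. With any 1 precipitate array left out fewer kinesins were called, and fewest without an MVH array.

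The list of fibrous sheath, outer dense fibre and sperm neck genes had the highest median of the 46, at 0.42, with 5 of 39 higher and 0 lower. Its arrays did not overlap in the higher direction for 21 genes (53.8%) and in the lower for 6 (15.4%), against 30.7% and 24.3% of all genes. Beside Akap3, those called were Cabyr, which binds calcium in the sheath, at 1023 and 1076 against 404 and 416 (1.36 ± 0.28, limma adjusted p = 0.0284), Odf3 at 4915 and 4588 against 2087 and 2030 (1.21 ± 0.26) and its relative Odf3b (1.15 ± 0.29). Spata18, a factor of mitochondrial quality control that the list also holds, read 12199 and 15532 against 3414 and 4947 (1.74 ± 0.30). In these 5 genes the precipitates were well apart, and at the mean log2 value total RNA was nearer to MVH than to IgG in each. Akap4, the main protein of the sheath, read 17463 and 18674 against 11940 and 12831; its arrays kept the order but the difference of 0.54 ± 0.26 was not past the threshold. The list shares Akap4, Odf1 and Oaz3 with the spermatid markers, 0 of them called, and the part of spermatid RNA as a whole in its result was not tested.

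Centrosome and centriole genes had 5 higher and 2 lower of 61 (8.2% and 3.28%, against 4.16% and 4.24% of all genes). Cep89, of centriole appendages, read 163 and 237 against 68.9 and 28.4 (2.15 ± 0.43), Cep72 58.8 and 71.2 against 21.8 and 14.1 (1.88 ± 0.30) and Plk4, the kinase that starts centriole duplication, 91.1 and 146 against 41.1 and 48.9 (1.36 ± 0.31). Cep57l1 was higher by 1.51 ± 0.37, and Odf2l by 1.98 ± 0.37 from a dim probe (1.20 with the offset). Cep85 was lower, at 672 and 587 against 2448 and 2917 (-2.09 ± 0.30, limma adjusted p = 0.0167), and so was the centriole duplication gene Cntrob (-1.41 ± 0.27). Of tubulins and tubulin-modifying enzymes, the glutamylases Ttll4 and Ttll1 were higher, by 1.43 ± 0.29 and 1.08 ± 0.28. Tuba1b, an alpha tubulin, had 2 probes called in opposite directions, -1.45 and 1.67, and no direction is given for it. Map2, a microtubule-binding protein in no list, was higher by 2.58 ± 0.31, at 65.1 and 51.1 against 12 and 7.79. Axoneme genes had 2 higher and 3 lower of 92 (2.17% and 3.26%), both under the background of 4.16% and 4.24%. The 2 higher were Tctex1d1 (1.78 ± 0.30) and Enkur (1.52 ± 0.32). Of those lower, Dnah6, a dynein heavy chain, read 488 and 611 against 1828 and 1837 (-1.75 ± 0.27). Bbs5, of the complex that sorts cilium membrane proteins, was higher by 2.38 ± 0.39, with MVH 2 more than double MVH 1 at 486 and 1147.

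Surface proteins and channels of sperm also gave calls. ADAM and ADAMTS proteases had a median of 0.30, with 3 higher and 1 lower of 44 (6.82% and 2.27%, against 4.16% and 4.24%). Adam21 read 104 and 153 against 48.8 and 27.5 (1.79 ± 0.35) and Adamts20 was higher by 1.38 ± 0.29. Ion channels gave 5 higher and 2 lower calls of 167, both shares under the background. Catsper4, a pore subunit of the sperm calcium channel, read 1469 and 1793 with MVH and 312 and 449 with IgG, with total RNA at 732 and 864 between them (2.12 ± 0.30, limma adjusted p = 0.0166). Kcnu1, the sperm potassium channel SLO3, read 150 and 181 against 85.3 and 69.2 (1.10 ± 0.28). Kcne3, a potassium channel subunit, was higher by 2.45 ± 0.47, between 1.66 and 3.24 with any 1 precipitate array left out, and MVH 2 alone read 5204. Trpm4 (-1.50 ± 0.35) was lower. Zpbp, which binds the egg coat, was higher by 1.14 ± 0.28.

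Splicing factors and hnRNPs stood on the lower side. Of 77 genes, 9 were lower and 1 higher, the list median was -0.35, and 55 genes lay below 0. The arrays did not overlap in the lower direction for 34 genes (44.2%) and in the higher for 11 (14.3%), against 24.3% and 30.7% of all genes. The median was below 0 in each of the 4 pairings of arrays, from -0.60 to -0.22. Against total RNA it was -0.18 and -0.04 on the MVH arrays and 0.32 and 0.18 on the IgG arrays. Most of the genes called lower encode parts of the snRNPs, the particles that recognise and cut introns. Snrpd3 and Snrpf belong to the Sm ring: Snrpd3 read 701 and 517 with MVH against 2601 and 1306 with IgG (-1.61 ± 0.37, limma adjusted p = 0.0358) and Snrpf 24.9 and 28.9 against 80.1 and 67.2 (-1.45 ± 0.27). For Snrpd3 IgG 2 lay below both total RNA arrays and IgG 1 above them, while for Snrpf total RNA read with MVH. Sf3b5 and Sf3b3, of the U2 particle, were lower, at -1.55 ± 0.36 and -1.18 ± 0.27, Snrnp70, of U1, at -1.21 ± 0.30, and Snrnp200, the helicase of U5, at -1.47 ± 0.31. Prpf3, of the U4/U6 particle, was lower, at -1.15 ± 0.28, the serine and arginine rich factor Srsf9 at -1.47 ± 0.28 and Hnrnpl, which binds CA-rich RNA, at -1.78 ± 0.34. The 1 gene that was higher, Hnrnpdl, read 88.8 and 198 against 29.3 and 25.7 (2.27 ± 0.39), with MVH 2 more than double MVH 1. Thrap3, a splicing and transcription factor in no list, was higher by 2.47 ± 0.27, at 557 and 656 against 100 and 118. With MVH 1, MVH 2 or IgG 1 left out fewer genes of the splicing list were called, and fewest without an MVH array. The list median was -0.23 without MVH 1, -0.56 without MVH 2, -0.20 without IgG 1 and -0.41 without IgG 2.

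Mitochondrial ribosomal proteins had 7 lower and 0 higher of 75, with a median of -0.27. They were Mrpl24, Mrps12, Mrpl44, Mrpl46, Mrpl27, Mrpl52 and Mrpl19, with differences from -1.62 to -1.13. Mrpl24, of the large subunit, read 137 and 149 with MVH and 531 and 365 with IgG (-1.62 ± 0.33, limma adjusted p = 0.028), and Mrps12, of the small subunit, 872 and 905 against 3575 and 1881 (-1.55 ± 0.34). In both the MVH arrays agreed closely, and IgG 1 was well above IgG 2. Leaving out IgG 1 left 0 calls in the list, and leaving out IgG 2 left 6. The highest member, Mrps30, differed by 1.17 ± 0.30 and just missed the threshold. On the values as deposited, without centring, the median of the list was 0.00 against 0.34 for all genes.

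Genes that act on DNA and chromatin were called in both directions, and in each list but DNA repair the balance of the calls turned when IgG 1 was left out. Over all probes the calls also turned in that fit, from more lower to more higher, so the turn is not particular to these lists. In the transcription machinery and Mediator, 11 of 121 were lower and 4 higher, but without IgG 1 there were 4 lower and 5 higher. Polr2b, the second largest subunit of RNA polymerase II, read 160 and 231 with MVH and 899 and 587 with IgG (-1.92 ± 0.32, limma adjusted p = 0.0188), with total RNA at the level of MVH. Med4 (-1.55 ± 0.28), Gtf3c1 (-1.55 ± 0.34), Ell3 (-1.54 ± 0.26), Gtf2h5 (-1.52 ± 0.28) and Polr2h (-1.48 ± 0.35) were lower as well. Taf1d (2.45 ± 0.52), Taf12 (1.42 ± 0.29), Cdk8 (1.29 ± 0.30) and Med26 (1.26 ± 0.30) were higher. In DNA repair and recombination, 10 of 97 were lower and 3 higher, and without IgG 1 there were 4 and 2. Rpa2, which coats single-stranded DNA, read 112 and 107 against 426 and 480 (-2.05 ± 0.27, limma adjusted p = 0.0161), and Ung, which removes uracil, 87.1 and 111 against 393 and 568 (-2.26 ± 0.30, limma adjusted p = 0.0161). Ddb2, which recognises damage by ultraviolet light, was lower, at -1.28 ± 0.30, and Tdp1, which frees trapped topoisomerase from DNA, was higher by 1.74 ± 0.26.

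Of DNA replication factors, 5 of 58 were lower and 2 higher, but without IgG 1 there were 3 lower and 4 higher. With all arrays fitted the shares were 8.62% lower and 3.45% higher, against 4.24% and 4.16% of all genes. The licensing inhibitor Gmnn read 594 and 576 with MVH and 2153 and 2505 with IgG, with each group tight (-1.99 ± 0.29, limma adjusted p = 0.0172). Cdc45 and Mcm4, of the replicative helicase, were lower, at -1.64 ± 0.30 and -1.52 ± 0.28. Rfc1 and Rfc2, subunits of the clamp loader, were higher, by 1.96 ± 0.33 and 1.43 ± 0.27, and Chaf1a, of the chromatin assembly factor and in no list, was higher by 2.23 ± 0.26 at 235 and 245 against 54.9 and 47.5. Cohesin, condensin and centromere genes had the lowest median of the 46 lists, -0.41, from -0.72 to 0.11 over the 4 pairings of arrays. Yet only 3 of 53 were called lower and 2 higher, or 1 and 2 without IgG 1. The shares with all arrays fitted, 5.66% lower and 3.77% higher, were near those of all genes. Smc1a, of cohesin, read 19.6 and 16.9 against 53.3 and 55.1 (-1.57 ± 0.26), its meiotic relative Smc1b differed by -1.07 ± 0.31 without passing the threshold, and Rad21 by -0.98 ± 0.28. Cenpa, the histone of centromeres, was lower, at -1.55 ± 0.29, and Cenpu and Cenpn, which bind at centromeres, were higher by 1.71 ± 0.33 and 1.65 ± 0.27. Chromatin modifiers had 10 lower and 5 higher of 162 (6.17% and 3.09%, against 4.24% and 4.16% of all genes). Without IgG 1 they had 2 lower and 5 higher, and without IgG 2 they had 12 and 2. The acetyltransferases Kat8, Kat7 and Kat2b were higher (1.87 ± 0.33, 1.45 ± 0.28 and 1.17 ± 0.29), as was Phf7, a histone reader and ubiquitin ligase of spermatids, at 16950 and 20642 against 4428 and 7377 (1.71 ± 0.32). The demethylases Kdm2a and Kdm5b and the methyltransferases Kmt2c and Prmt1 were lower (-2.01 ± 0.51, -1.47 ± 0.30, -1.44 ± 0.31 and -1.68 ± 0.38). With any 1 precipitate array left out, Prmt1 differed by values between -2.26 and -1.09. Of 11 spermatogonial markers, 3 were lower and 1 higher. Their summed signal, in which Nanos3 has a large part, is given above. Spermatocyte markers had 2 of 16 higher and 2 lower (summed 21030 and 25489 with MVH, 26356 and 24443 with IgG), and 5 lay above 0 and 11 below. The part of either cell type in the DNA and chromatin lists was not tested.

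Actin and its partners were lower with MVH in 10 of 106 genes and higher in 2, around a median of -0.07. Leaving out IgG 1 gave 6 lower and 1 higher. Acta2, smooth muscle actin, read 502 and 295 with MVH and 3037 and 1388 with IgG (-2.42 ± 0.42, limma adjusted p = 0.0199). Total RNA read 370 and 463, the level of MVH, so that the IgG arrays stood apart from the other 4. Pfn1, a profilin that loads actin monomers, read 191 and 140 against 526 and 318 (-1.32 ± 0.33), while Pfn2, another profilin, was higher, at 1585 and 2159 against 718 and 854 (1.24 ± 0.29). Tpm1 was lower, at -1.74 ± 0.29, the smooth muscle myosin Myh11 at -1.51 ± 0.32, Myo10 at -1.67 ± 0.42, the Arp2/3 subunits Arpc5 and Arpc5l at -1.18 ± 0.28 and -1.21 ± 0.26, and Flii, a relative of gelsolin, at -1.11 ± 0.28. With any 1 precipitate array left out, Myo10 differed by values between -2.32 and -1.02. Tpm3 was lower, at -1.41 ± 0.28 on 1 probe and differed by -0.22 on the other. Tmod2, which caps actin filaments, was higher by 2.09 ± 0.33. Of the 10 tested markers of peritubular, smooth muscle and vascular cells, 2 were lower, Acta2 and Myh11, and 0 higher. Their summed signal was 643 and 455 with MVH, 3273 and 1566 on the IgG arrays and 522 and 614 for total RNA, with Pecam1 and Cdh5 not tested. Acta2 makes up most of those sums, and 5 of the 10 markers lay above 0; the part of these cells in the actin result was not tested.

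Extracellular matrix genes had 7 lower and 2 higher of 141, or 6 and 0 without IgG 1. With all arrays fitted the shares were 4.96% lower and 1.42% higher, against 4.24% and 4.16% of all genes. The lower share was thus near that of all genes, and the list median was 0.03. Lamb2, a laminin chain of basement membranes, read 160 and 140 with MVH and 626 and 580 with IgG (-2.01 ± 0.32, limma adjusted p = 0.0174). The proteoglycan Bgn (-1.86 ± 0.30) and the collagens Col16a1 (-1.71 ± 0.27), Col3a1 (-1.58 ± 0.29) and Col5a1 (-1.30 ± 0.27) were lower, and Fbln1 (-1.98 ± 0.30) was lower from a dim probe. The protease inhibitors Serpina5 (1.31 ± 0.29) and Serpini2 (2.03 ± 0.36, dim with IgG) were higher. Steroid and xenobiotic metabolism had 8 lower and 1 higher of 119, or 5 and 1 without IgG 1. Its shares with all arrays fitted were 6.72% lower and 0.84% higher. Ephx1, the microsomal epoxide hydrolase, read 84.3 and 59.8 against 432 and 358 (-2.47 ± 0.35), and Cyp11a1, which makes pregnenolone from cholesterol, 211 and 158 against 1232 and 551 (-2.17 ± 0.45). Hsd3b6 and Hsd3b1, which follow it in steroid synthesis, were lower, at -1.97 ± 0.29 and -1.88 ± 0.32, and the wider dehydrogenases Hsd17b10 and Hsd17b4 at -1.64 ± 0.34 and -1.18 ± 0.28. Cyp2j5 was higher by 1.46 ± 0.29. This list shares 8 genes with the markers of Leydig cells, 4 of them called lower. Of 9 tested Leydig markers, 5 were lower and 0 higher, with a summed signal of 2123 and 2579 with MVH, 6148 and 4408 on the IgG arrays and 2028 and 2882 for total RNA. All 9 lay below 0, with a median of -1.50. Insl3 and Lhcgr, which define Leydig cells, were not tested. Sertoli cell markers had 1 of 12 lower (Defb36, -1.80 ± 0.38) and macrophage and blood markers 1 of 10. As for peritubular markers, the Leydig sums with MVH lay near those of total RNA and the sums with IgG above them; the part of Leydig cells in the result was not tested.

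The remaining lists had calls in both directions or few calls. Their shares are to be read against 4.16% higher and 4.24% lower over all genes, and several lay near these. Nuclear pore and transport genes had 5 higher and 4 lower of 63 (7.94% and 6.35%). Nup93, of the inner ring of the pore, read 182 and 300 with MVH and 1068 and 1104 with IgG (-2.22 ± 0.32, limma adjusted p = 0.0172), and Nup85 and Nup107, of its outer ring, were lower, at -1.95 ± 0.29 and -1.11 ± 0.29. The pore genes Nupl2, Nupl1 and Pom121l2 were higher by 1.48 ± 0.27, 1.46 ± 0.30 and 1.35 ± 0.28. The importins Tnpo1 and Kpna2 were higher by 2.05 ± 0.36 and 1.16 ± 0.30, and the exportin Xpo1 was lower, at -1.27 ± 0.31. Heat shock proteins and chaperonins had 4 higher and 6 lower of 83 (4.82% and 7.23%). The chaperones Dnajb1, Hspd1 and Hsp90ab1 were lower (-1.93 ± 0.30, -1.48 ± 0.29 and -1.43 ± 0.28), as was the prefoldin gene Pfdn2, at 821 and 806 against 3420 and 3298 (-2.05 ± 0.31). The DnaJ genes Dnajb12 (1.96 ± 0.31), Dnajc5g (1.63 ± 0.33) and Dnajb2 (1.05 ± 0.26) and the testis chaperonin subunit Cct6b (1.20 ± 0.27) were higher. Endosomal sorting had 6 higher and 5 lower of 102 (5.88% and 4.9%, near the shares of all genes). The ESCRT genes Vps37a, Vps4a and Chmp4b were higher (1.93 ± 0.32, 1.88 ± 0.27 and 1.72 ± 0.30), and sorting nexins went both ways, with Snx2 higher (1.55 ± 0.32) and Snx11 and Snx4 lower (-1.84 ± 0.28 and -1.70 ± 0.31). Of the COPII coat, Sec24b and Sec23ip were higher (1.82 ± 0.33 and 1.99 ± 0.39) and the GTPase Sar1a was lower (-1.49 ± 0.31).

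Autophagy genes were split evenly, with 3 each way of 41 (7.32% each). The receptor Optn was higher, at 165 and 198 against 42.8 and 35.6 (2.21 ± 0.27, limma adjusted p = 0.0152), and so was the kinase Ulk2 (1.69 ± 0.27). Ulk3 and Atg14 were lower (-1.96 ± 0.35 and -1.67 ± 0.29). Of redox genes, Hmox2 was higher at 10204 and 10916 against 3153 and 2446 (1.93 ± 0.30) and Gstt4 by 1.68 ± 0.26, whereas the family member Gstt1 was lower, at -1.84 ± 0.33. In mitochondrial quality control the protease Yme1l1 was higher, at 407 and 1084 against 120 and 95.6 (2.63 ± 0.43), with MVH 2 the higher array, and Tomm34, of protein import, was lower, at -1.56 ± 0.27. Rab genes were called 3 each way of 64 (4.69% each, near the background of 4.16% and 4.24%). Those higher include Rab3ip and Rab3il1, which are exchange factors and not GTPases, beside Rab1 (1.37 ± 0.31). Solute carriers had 12 higher and 9 lower of 250 (4.8% and 3.6%, also near it). They were led by the zinc carrier Slc30a3 (2.10 ± 0.43) and by the magnesium carrier relative Slc41a3, at 1447 and 837 against 4810 and 7982 (-2.49 ± 0.36). Zfp zinc finger genes had 12 and 7 of 228 (5.26% and 3.07%), led by Zfp474 (2.31 ± 0.27) and Zfp740 (-1.68 ± 0.32). The signal recognition and translocation list, lysosomal genes, mitochondrial carriers, cholesterol synthesis, E2 enzymes and P-type pumps each had at most 2 calls in a direction.

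**Figure D4:**
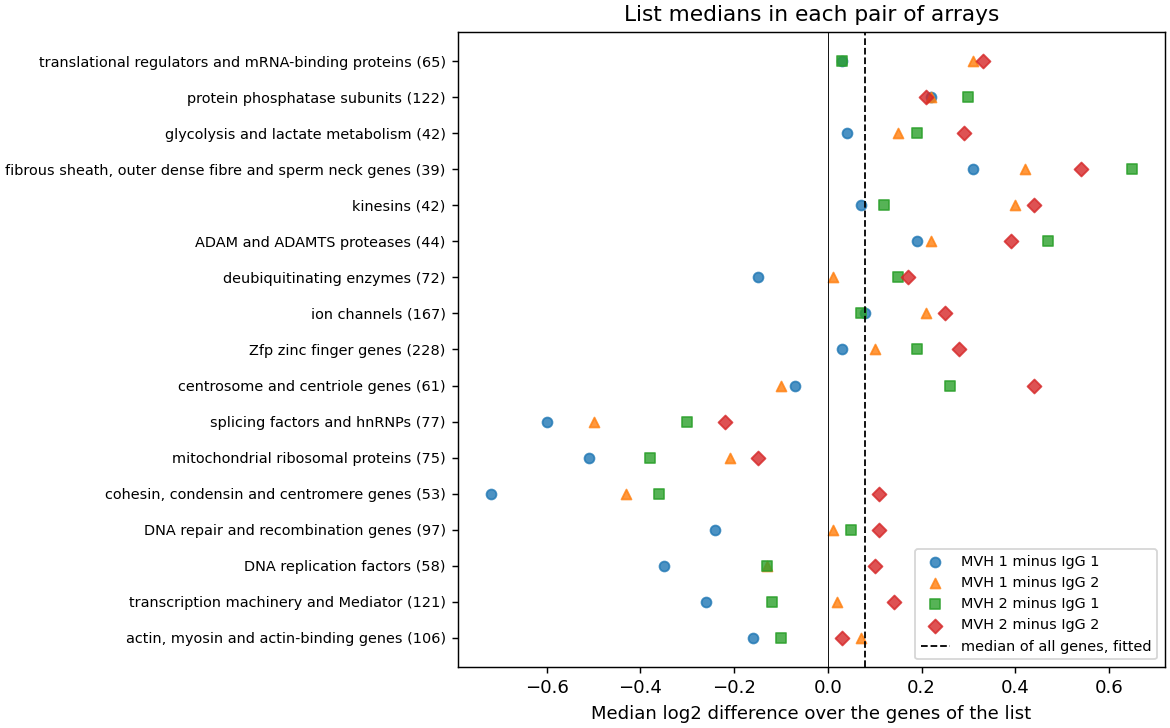
Median log2 difference over the tested genes of 17 function lists (numbers in parentheses) for each of the 4 pairings of an MVH with an IgG array; the dashed line is the fitted median of all genes, 0.08. The fibrous sheath list lies to the right of it in every pairing and the splicing and mitochondrial ribosome lists to the left of 0, while the cohesin, transcription, repair and replication lists cross 0.

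The labels do not say whether arrays of the same number share a preparation, so the plot of list medians by array pair shows all 4 pairings. The medians of phosphatase, fibrous sheath and ADAM genes were above 0.08, the fitted median of all genes, in all 4. Those of kinesins, translational regulators, glycolysis, ion channels and Zfp genes were above 0 in all 4 but below 0.08 in at least 1. The value 0.08 was fitted over all 4 arrays and moves with them, to 0.01 without IgG 2 and 0.14 without IgG 1. It is therefore not matched to a single pairing. For translational regulators both pairings with IgG 1 gave 0.03, and those with IgG 2 gave 0.31 and 0.33. The list of DNA repair genes ranged from -0.24 to 0.11 and that of the transcription machinery from -0.26 to 0.14, which is wider than their distance from the median of all genes.

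Many genes expressed in spermatogenic cells have a counterpart used elsewhere in the body, which gives matched pairs of the same protein family. In 32 of 44 such pairs both genes were tested. Of the 32 germ cell genes, 2 were higher (Pgk2 and Kif2b) and 0 lower, with a median of 0.33. Of the 31 counterparts, 4 were higher (Ldha, Pabpc1, Ybx1 and Akap1) and 3 lower (Cox8a, Pgam1 and Smc1a), with a median of -0.03. In 23 pairs neither gene was called, in 9 pairs 1 was, and in 0 pairs both were. Ldhc, the sperm lactate dehydrogenase, read 41887 and 50612 with MVH and 40786 and 41255 with IgG, a difference of 0.17 ± 0.28, beside 2.64 for Ldha. Pgk1 differed by -0.11 ± 0.31 beside 2.13 for Pgk2, and Pgam2 by 0.25 ± 0.30 beside -2.11 for Pgam1. For Kif2b and Kif2a the differences were 3.45 ± 0.44 and 0.33 ± 0.33, and for the cytochrome oxidase subunits Cox8c and Cox8a -0.90 ± 0.29 and -1.36 ± 0.30. The differences between the genes of a pair were not tested.

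**Figure D5:**
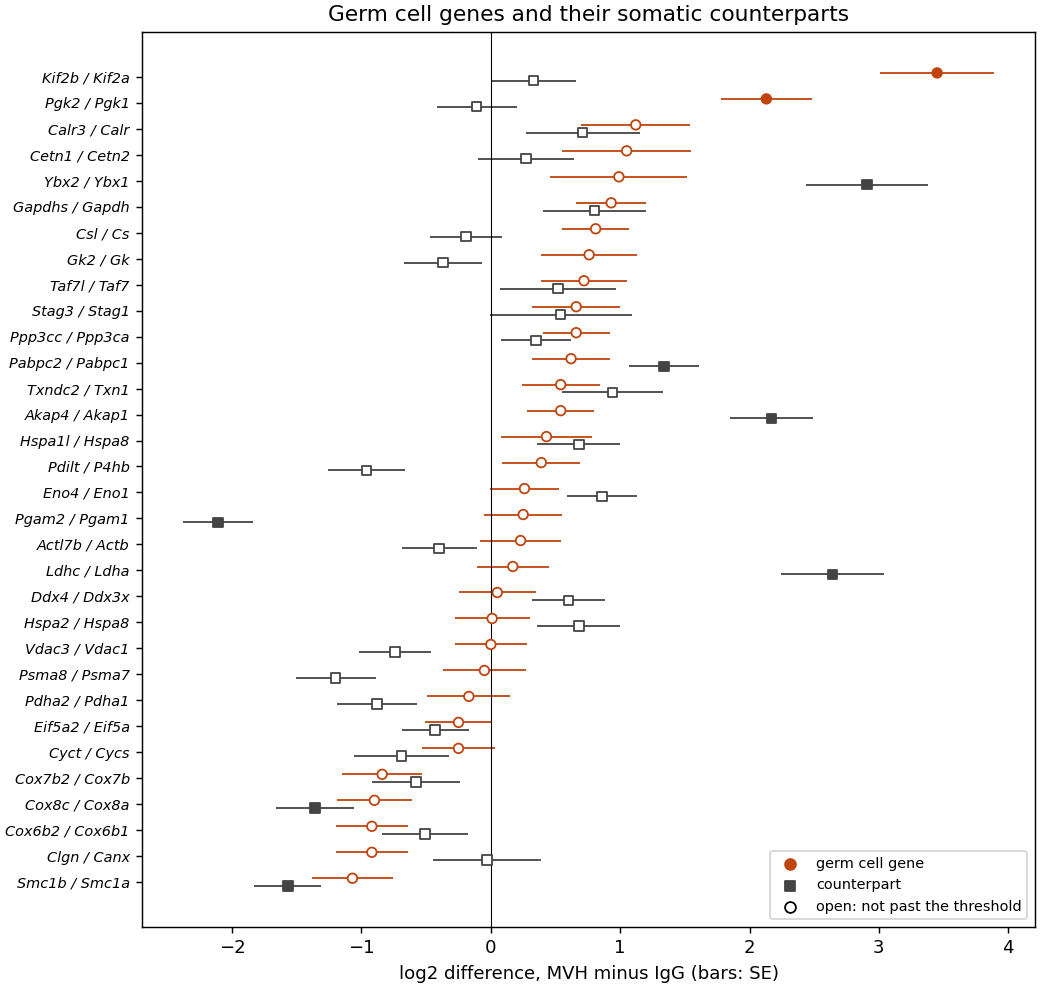
Log2 difference, MVH minus IgG, with its SE for 32 germ cell genes (red circles) and their counterparts (dark squares), ordered by the germ cell gene; filled symbols were called at a limma adjusted p under 0.05. Kif2b and Pgk2 are the 2 filled circles at the top, and Ldha, Ybx1, Akap1 and Pabpc1 are filled squares to the right of their germ cell partners.

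Some of the largest differences fell in no function list. Among those higher, Penk, the precursor of enkephalin peptides, whose mRNA is made in spermatogenic cells, read 1560 and 1689 with MVH and 311 and 268 with IgG, with close arrays in each group (2.49 ± 0.33, limma adjusted p = 0.0161). Coro2a, a coronin, read 822 and 629 against 130 and 98.1 (2.67 ± 0.35, limma adjusted p = 0.0161), and Zswim2, a zinc finger ubiquitin ligase, 227 and 376 against 45.1 and 46.4 (2.67 ± 0.32). Mtdh, an RNA-binding protein of the endoplasmic reticulum, read 658 and 1126 against 227 and 97.2 (2.54 ± 0.53). Strap, which takes part in assembly of the SMN complex, was higher by 2.38 ± 0.30, at 1419 and 1726 against 365 and 249. Adss, an enzyme of AMP synthesis, read 114 and 240 against 37.9 and 14.7 (2.81 ± 0.50), and Tgfbr1, a receptor of TGF-beta, 78.6 and 307 against 28.9 and 25. The difference of Tgfbr1, 2.53 ± 0.54, rests largely on MVH 2, and lay between 1.55 and 3.52 with any 1 precipitate array left out. Prame (2.83 ± 0.39) and Antxr2 (2.49 ± 0.33) were dim with IgG, which leaves their size uncertain (1.59 and 1.52 with the offset).

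Among those lower, Tbl2 read 123 and 138 with MVH and 572 and 627 with IgG, with close arrays in each group (-2.20 ± 0.27, limma adjusted p = 0.0152). St3gal5, which makes the ganglioside GM3, read 227 and 187 against 765 and 1485 (-2.37 ± 0.37). Itih5, a hyaluronan-binding serum protein relative, read 18.7 and 15.2 against 75.2 and 76.3 (-2.17 ± 0.29, limma adjusted p = 0.0161), and Retsat, which saturates retinol, 44.1 and 65.3 against 280 and 186 (-2.09 ± 0.32). Akr1cl, an aldo-keto reductase, was lower, at -2.37 ± 0.36, and Mterf1a, which ends transcription in mitochondria, at -2.12 ± 0.36. The homeobox gene Rhox8, expressed in Sertoli cells, read 316 and 329 against 1045 and 1624 (-2.01 ± 0.30). For Tbl2, St3gal5 and Rhox8 total RNA read 166 and 211, 192 and 262 and 398 and 442, nearer to MVH than to IgG. S100a4 and S100a6, small calcium-binding proteins, were lower, at -2.06 ± 0.26 and -2.00 ± 0.39 but dim with MVH.

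A second probe allowed a check for a few genes. Of 199 genes with more than 1 probe tested, 33 had a called probe. In 24 of them all probes had the same sign and in 9 they did not. In 2 genes more than 1 probe was called in the same direction, and in 3 probes were called in opposite directions (Ttbk1, Tuba1b and Fhad1). Which transcripts the probes of a gene detect was not examined, and probes for Usp17la, Uchl4, Ube2d2b, Tssk1, Tssk2, Hsd3b1, Hsd3b6 and Tuba1b may also take up signal from near-identical relatives. Probes blank on both arrays of a precipitate added little: 89 had a value on each MVH array and a blank on each IgG array, and 64 the reverse. The brightest named one, Hjv, read 11.5 and 10.1 with MVH, and the medians were 2.35 and 2.79, at the low end of the scale.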

How the data were processed

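Toray mouse oligonucleotide arrays, 1 colour (Cy5), were hybridised with RNA from 2 MVH precipitates, 2 IgG precipitates and 2 total RNA samples. The deposited values are intensities on a linear scale, 1 per probe and array, with dim probes left blank; how the authors corrected background and scaled them is not given in the sources used here. Medians as deposited were 30 on 5 arrays and 20.8 on IgG 2. Each array was centred here on the median of its listed log2 values, and scaled intensities put that median at 30.

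The contrast of MVH minus IgG was estimated from all 6 arrays with limma 3.58.1 (R 4.3.3; lmFit and eBayes, residual df 3, prior df 5.77, median SE 0.31), with no block. It was tested at 21574 probes listed on all 4 precipitate arrays, with Benjamini-Hochberg adjusted p-values over all of them and a threshold of 0.05. The number of arrays limits the precision; depth does not apply. The fitting step was tested on simulated data. Tables and plots were made with pandas 2.3.3 and matplotlib 3.10.9.

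Symbols came from the platform annotation, brought up to date through RefSeq (GRCm38.p6, names only): of 23473 probes, 16631 had 1 symbol, of which 12622 were current, 3947 were updated and 62 were kept unmatched, and 6842 had none. Each gene is represented by its tested probe with the highest mean over the arrays. The table names no genome build, so no positions are given.

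The members and lists were chosen with earlier results of these data known. Genes were named by rule: the 30 largest called differences each way with the higher group at 10 or above on both arrays and no overlap, up to 6 called members per list and direction or the extreme members where none was called, the genes of the pairs, and 8 genes by name: Ddx4, Eif4b and Prm1, with values in the results, and 5 more. Of these, Actb differed by -0.40 ± 0.29, Gapdh by 0.80 ± 0.40 from a dim probe (0.27 with an offset of 4), Tnp1 by -0.15 ± 0.32, Hat1 by 0.95 ± 0.38 and Snd1 by -0.10 ± 0.28. Not all named genes are described. Outside this rule, and named after their values were seen, are Cpeb2, Samd4, Tpi1, Pfkfb4, Usp2, Usp17la, Ppp1r1a, Ppp1r32, Ptpn14, Ppp2cb, Snrnp70, Sf3b3, Prpf3, Mrpl19, Pfn1, Arpc5, Arpc5l, Flii, Hsd17b10, Hsd17b4, Col5a1, Thrap3, Chaf1a, Strap, Rhox8, S100a4, S100a6, Defb36, Zpbp, Ttbk1, Fhad1 and Hjv. Lists were described by counts and medians, with no test of a list. Alternatives covered centring, normalization, dim probes, an offset, the variance model, the arrays fitted, leaving out each array and a replicate block.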

Additional observations from a re-analysis of the deposited data

How the results depend on the processing

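The values of all 371 called genes named here kept their direction under every setting, but their calls did not. The direction could hardly turn, as the arrays of called genes did not overlap between the precipitates. For probes higher and lower with MVH (824 and 895), leaving out the dimmest 25% of probes gave 1492 and 1624 calls, an offset of 4 before log2 gave 1454 and 1501, and a variance trend with robust fitting gave 1507 and 1636. Values as deposited with no centring gave 702 and 121, and 213 of the 371 genes stayed called. With only the 4 precipitate arrays fitted there were 0 and 0 calls by limma (4898 at an unadjusted p under 0.05). Leaving out 1 array at a time gave between 0 and 593 higher and between 0 and 819 lower, with 48 of the 371 genes still called without MVH 1, 202 without IgG 1, 239 without IgG 2, and 0 without MVH 2 or either total RNA array. Estimating the spread over the tested probes only, a choice made after seeing the data, gave 1061 and 1134. Quantile normalization gave 1063 and 988, centring on the 75th percentile 1134 and 924, probes listed on all 6 arrays 1126 and 1195, and a fit of 1 probe per gene 905 and 901. The cause of these changes was not tested.

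The groups share the replicate numbers 1 and 2, and nothing in the labels says that a number marks a shared preparation. Deviations of same-numbered arrays from their group means correlated over 21241 probes at 0.157 for MVH and IgG, 0.156 for MVH and total RNA and 0.101 for IgG and total RNA. With the number as a replicate block there were 1102 higher and 1165 lower probes, and 369 of the 371 named genes stayed called.

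Signal over background limits dim probes: a blank is no level, and below a scaled intensity of 10 the size of a difference depends on the offset.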
